A study of Homo sapiens with 2 samples.

Results

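The 10 genes described here are transcribed in response to the extracellular signal-regulated kinases ERK1 and ERK2, and all but 1 of their products act back on that pathway. They were chosen by symbol, as the rows for DUSP1, DUSP4, DUSP5, DUSP6, SPRY1, SPRY2, SPRY4, SPRED1, SPRED2 and ETV4 among the 60616 genes of the deposited tables, and all 10 were found once each. RNA was sequenced from 1 culture of HSC-3 cells given 0.1% DMSO, the vehicle, and from 1 culture given 1 µM FIN56 for 48 h. HSC-3 is an established line from a human squamous cell carcinoma of the tongue, grown in DMEM with serum, and no engineered allele is labelled for either culture. The compound FIN56 triggers ferroptosis, in which peroxidised membrane lipids kill the cell and iron is needed, and the study chose its dose as sublethal. With 1 library per condition there is no replicate check. No p-value is given, and treatment cannot be told apart from any other difference between both cultures.

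Growth factor receptors activate RAS, which passes the signal through RAF and MEK to ERK. ERK output is limited by genes that ERK itself induces. Dual specificity phosphatases (DUSPs) remove the activating phosphates from MAP kinases, Sprouty proteins restrain signalling between the receptor and RAF, and SPRED proteins bring the RAS inactivator neurofibromin to the membrane. ETV4 is an ETS transcription factor of the PEA3 group that carries part of the transcriptional output. Transcripts of these genes are widely used as readouts of ERK activity in carcinoma cells, in which the EGF receptor commonly feeds the pathway.

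Promoter windows of 3 of the genes are printed to show the sequence just before an annotated start. Which starts are used in these cells was not measured. For each, the 250 bases before a RefSeq gene start are given 5′ to 3′ on the strand of the gene (GRCh38.p14). DUSP6 (chr12:89352502-89352751, minus strand) is shown as the phosphatase gene with the highest ratio, DUSP1 (chr5:172771196-172771445, minus strand) as the classic immediate early member, and SPRY2 (chr13:80341127-80341376, minus strand) for its ETS motif.
DUSP6: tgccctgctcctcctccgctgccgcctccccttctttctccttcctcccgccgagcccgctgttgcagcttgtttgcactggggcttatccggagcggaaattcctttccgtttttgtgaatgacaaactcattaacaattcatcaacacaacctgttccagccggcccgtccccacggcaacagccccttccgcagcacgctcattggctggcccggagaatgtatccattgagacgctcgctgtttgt
DUSP1: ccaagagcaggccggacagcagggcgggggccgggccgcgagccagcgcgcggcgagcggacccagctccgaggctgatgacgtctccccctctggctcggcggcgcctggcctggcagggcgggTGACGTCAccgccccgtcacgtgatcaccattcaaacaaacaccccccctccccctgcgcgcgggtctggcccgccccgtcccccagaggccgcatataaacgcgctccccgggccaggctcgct
SPRY2: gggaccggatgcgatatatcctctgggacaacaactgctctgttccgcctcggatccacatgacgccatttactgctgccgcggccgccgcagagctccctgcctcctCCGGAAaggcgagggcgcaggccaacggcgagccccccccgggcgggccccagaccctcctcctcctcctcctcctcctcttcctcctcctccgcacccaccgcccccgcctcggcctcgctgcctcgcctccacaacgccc

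Capitals mark matches on either strand to 4 motifs. These were the ETS motif CCGGAA, the cAMP response element TGACGTCA, the AP-1 motif TGANTCA and the CArG box bound by serum response factor, and no stretch matched more than 1 of them. TGACGTCA lay in DUSP1 from base -125 to -118 counted from the gene start, and 1.65% of the 35116 windows of this length in the RefSeq table hold it. CCGGAA lay in 1 of the SPRY2 windows from base -142 to -137 and in 1 of the SPRY1 windows from base -67 to -62, against 14.5% of all windows. The other SPRY2 windows held none of the 4 motifs. TGANTCA, found in 6.57% of all windows, and the CArG box, found in 1.16%, matched none of the 11 windows of the 7 genes that were searched. DUSP4, DUSP5 and ETV4 were not searched, so their motifs are not known here. The windows of DUSP6, SPRY4, SPRED1 and SPRED2 held none of the 4 motifs.

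The libraries held 70184517 expected counts with DMSO and 73062209 with FIN56. Expected counts are RSEM estimates, and a read compatible with more than 1 gene is split among those genes. Squamous markers were high in both libraries, with a KRT5 FPKM of 2078 and 1647 and a TP63 FPKM of 85.6 and 92.6. The leukocyte markers PTPRC and CD3E and the fibroblast marker COL1A2 were listed at 0 in both, while CD68, which is not restricted to leukocytes, had an FPKM of 57.3 with DMSO and 24.6 with FIN56. The 3 fibroblast markers summed to an FPKM of 4.45 and 2.29, of which COL1A1 held 4.25 and 2.19, and the 3 endothelial markers to 0.08 in each. FPKM, which is scaled for gene length and sequencing depth, is the level used below, and the ratio of a gene is its FPKM with FIN56 divided by that with DMSO. For the 10 genes, and for other genes where stated, an exact 95% Clopper-Pearson interval is given. It belongs to the ratio of the expected counts, scaled by library totals. The interval covers counting error only and compares the libraries, not the conditions.

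All 10 feedback genes had a higher FPKM in the FIN56 library than in the DMSO library. Their ratios ran from 1.15 for SPRED2 to 2.17 for SPRY4, with a median log2 ratio of 0.50, beside 0.028 over the 12638 genes whose FPKM was 1 or higher in each library. A ratio of 1.5 or more, the study's criterion, was reached by SPRY4, DUSP6 and DUSP4, that is by 3 of the 10, and was reached by 14.7% of the 24454 genes whose FPKM exceeded 0 in each library. Since all 10 had an FPKM of 1 or higher in each library, the nearer background is the 3.87% of genes reaching 1.5 among the 12638. SPRY4 and DUSP6 also exceeded 2, which 0.625% of the 12638 genes reached. None of the 10 had a ratio of 1/1.5 or less, against 6.77% of the 12638 genes and 17.3% of the 24454. The counting interval lay above 1 for 9 of the 10 genes, against 38.0% of the 12638, and it held 1 for SPRY1. A ratio above 1 on its own was seen for 53.5% of the same genes. In bulk RNA, more transcript per cell cannot be told apart from more cells that carry it.

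**Figure D1:**
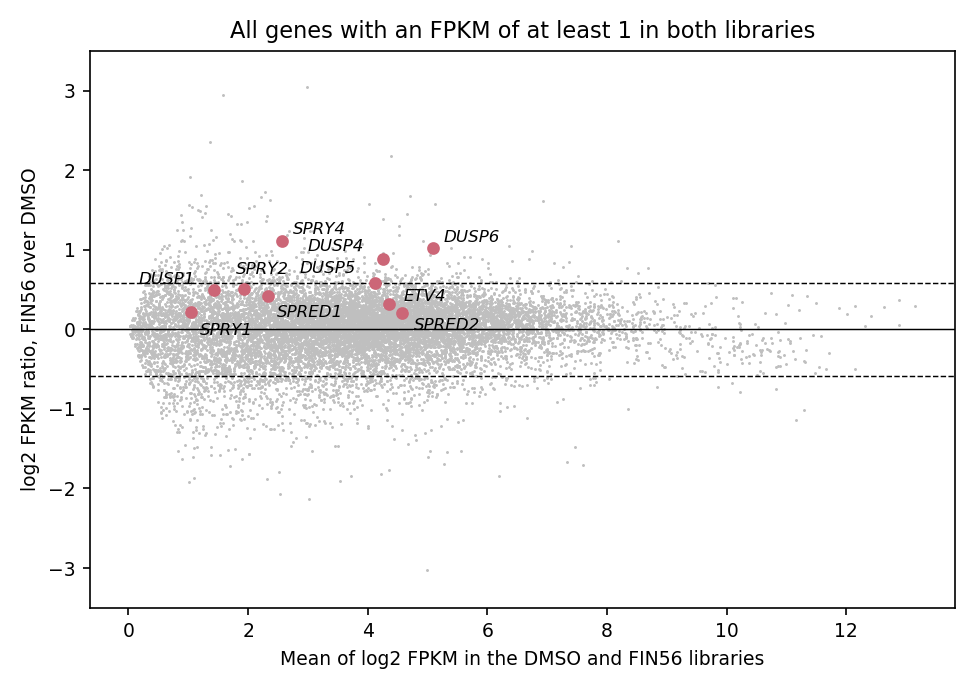
Each grey point is 1 of the 12638 genes whose FPKM was 1 or higher in each library, placed by its mean log2 FPKM (x axis) and its log2 FPKM ratio of FIN56 over DMSO (y axis), with dashed lines at ratios of 1.5 and 1/1.5. The 10 named feedback genes all lie above 0, from SPRED2 at 0.21 to SPRY4 at 1.11, at low as well as high levels.

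The phosphatase genes ranged most widely in level, from an FPKM of 2.26 for DUSP1 to 24.05 for DUSP6 in the DMSO library. DUSP6, a cytoplasmic phosphatase selective for ERK, had an FPKM of 24.05 with DMSO and 48.66 with FIN56, a ratio of 2.02. The count ratio was also 2.02, with an interval of 1.94 to 2.09, and 99.4% of the 12638 genes had a lower FPKM ratio. DUSP6 (ENSG00000139318) lies on the minus strand of chromosome 12 from 89347235 to 89352501 and its canonical transcript has 3 exons. It was the only 1 of the 10 genes whose expected counts were not whole, at 3969.19 and 8331.10. A non-coding gene on the opposite strand, ENSG00000274021, shares 1105 exonic bases with it and had 33.81 and 54.90 expected counts. The counts of both genes added up to 4003 and 8386, and their summed ratio was 2.01 with an interval of 1.94 to 2.09. The opposite-strand counts are few beside those of DUSP6, so this ratio could hardly have differed. It does not show whether reads over the shared bases that were assigned to DUSP6 belong to the other gene.

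DUSP4 is a nuclear phosphatase that acts on ERK and other MAP kinases. Its level was 14.06 FPKM with DMSO and 25.89 FPKM with FIN56, a ratio of 1.84. The expected counts behind it were 5324 and 10158, and the count ratio of 1.83 had an interval of 1.77 to 1.89. DUSP4 and DUSP6 together with SPRY4 were the feedback genes whose counting interval lay wholly above 1.5. DUSP5, the nuclear phosphatase selective for ERK, had an FPKM of 14.23 and 21.21 and fell just below the criterion with a ratio of 1.49. Its count interval of 1.41 to 1.57 spans 1.5, and the deposited TPM values gave 1.52. In the DMSO library the counting intervals of the DUSP4 and DUSP5 levels overlapped, whereas in the FIN56 library DUSP4 was the higher of both.

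DUSP1, an immediate early gene whose product prefers the stress kinases p38 and JNK, was the least abundant of these phosphatases. Its level was 2.26 FPKM with DMSO and 3.18 FPKM with FIN56, a ratio of 1.41. It rested on 303 and 445 expected counts, so its count ratio of 1.41 carried a wide interval of 1.22 to 1.64. The FIN56 library was the higher for each of the 4 phosphatase genes, and among them only the ratios of DUSP4 and DUSP6 had intervals that lay apart from that of DUSP5.

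**Figure D2:**
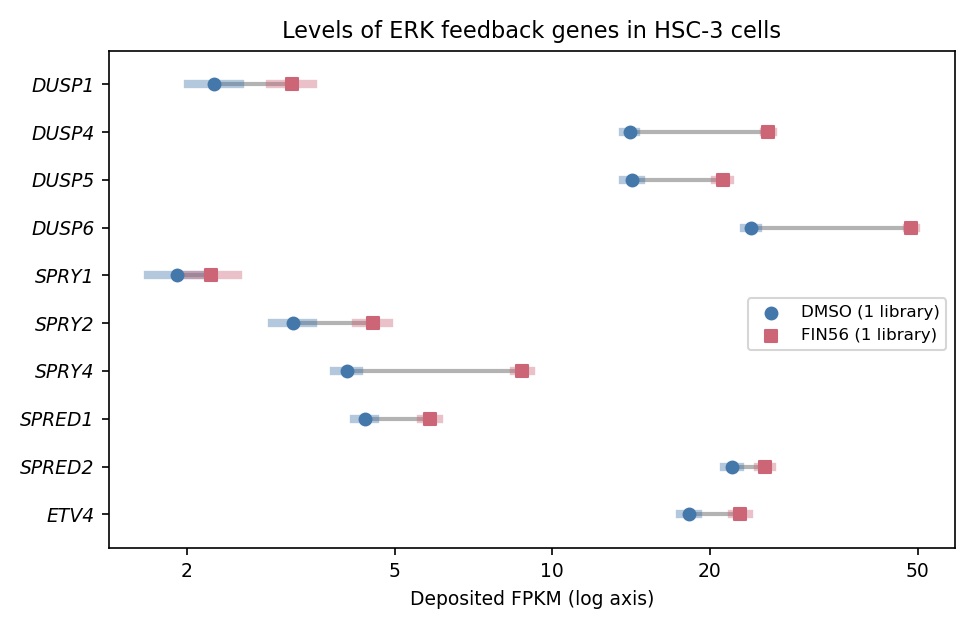
The deposited FPKM of each feedback gene (log x axis) in the DMSO library (circles) and the FIN56 library (squares), with shaded bars for the exact 95% Poisson counting interval of each level. FIN56 lies to the right for every gene, the intervals of both libraries overlap for SPRY1 alone, and DUSP6 spans 24.05 to 48.66.

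Sprouty genes were expressed at low levels, and their ratios spanned a wider range than those of the phosphatase genes, from 1.16 to 2.17. SPRY4 had an FPKM of 4.05 with DMSO and 8.77 with FIN56, and its ratio of 2.17 was the highest of the 10. Its expected counts were 1302 and 2878, and its count ratio of 2.12 had an interval of 1.99 to 2.27. SPRY2, which binds the ubiquitin ligase CBL and the adaptor GRB2, had an FPKM of 3.19 and 4.54, a ratio of 1.42 with a count interval of 1.28 to 1.61. SPRY1 had the lowest level of the 10 genes in both libraries, 1.92 and 2.23. With 237 and 280 expected counts its count interval of 0.951 to 1.36 held 1, so a difference in SPRY1 was not detectable at this depth. The intervals of SPRY4, SPRY2 and SPRY1 placed SPRY4 apart from the other two, which overlapped each other.

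Both SPRED genes had lower ratios than SPRY4. SPRED1, the gene mutated in Legius syndrome, had an FPKM of 4.38 with DMSO and 5.84 with FIN56, a ratio of 1.33 with a count ratio of 1.27 and an interval of 1.19 to 1.35. SPRED2 was more abundant, at 22.11 and 25.51, and its ratio of 1.15 was the lowest of the 10. For SPRED2 the FPKM ratio lay below the interval of its count ratio, which was 1.31 with bounds of 1.25 and 1.37, from 3186 and 4340 expected counts. The effective length by which RSEM divides is set for each library by its estimated transcript isoforms, and the size of the SPRED2 difference therefore depended on the measure. By counts the SPRED1 and SPRED2 intervals overlapped.

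ETV4, the transcription factor of the set, had an FPKM of 18.29 with DMSO and 22.90 with FIN56, a ratio of 1.25. Its expected counts were 2450 and 2919, and here the count ratio of 1.14, with an interval of 1.08 to 1.21, was below the FPKM ratio. ETV4 and DHX8, on the opposite strand, share 68 exonic bases, and the counts of both genes were whole. By level ETV4 ranked 3 of the 10 with DMSO and 4 with FIN56.

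**Figure D3:**
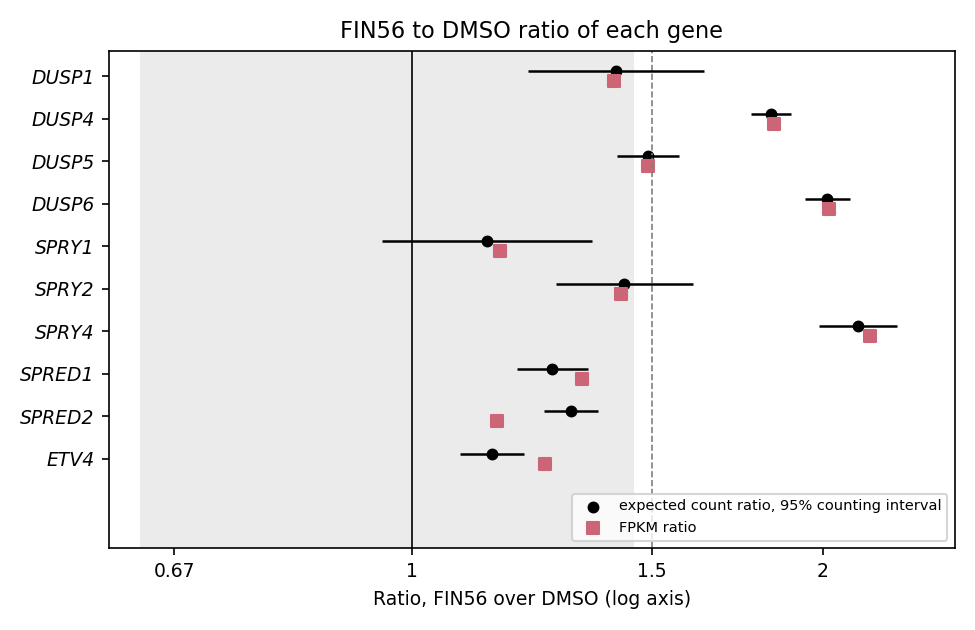
Ratios of FIN56 over DMSO for the 10 feedback genes on a log axis, with squares for the FPKM ratio, circles for the expected count ratio and bars for its 95% counting interval. Grey shading spans the 5th to 95th percentile of FPKM ratios over the 12638 genes (0.633 to 1.45) and the dashed line is 1.5. SPRY4, DUSP6 and DUSP4 lie right of the line, and for SPRED2 and ETV4 the square falls outside the bar.

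The 10 genes summed to an FPKM of 108.54 with DMSO and of 168.73 with FIN56, a ratio of 1.55. DUSP6 made up 40.9% of the difference and DUSP4 19.7%, whereas SPRY1 made up 0.515%. The order of levels with DMSO was DUSP6, SPRED2, ETV4, DUSP5, DUSP4, SPRED1, SPRY4, SPRY2, DUSP1 and SPRY1. In that order the intervals of DUSP5 and DUSP4, of SPRED1 and SPRY4, and of DUSP1 and SPRY1 overlapped. Overlap of separate intervals does not test a difference, and the order within these pairs was not tested. With FIN56, DUSP4 ranked 2, against 5 with DMSO, and its interval overlapped that of SPRED2, and SPRY4 passed SPRED1. These are levels per length, and counting error is their only measured spread.

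The close relatives of these genes did not share a single direction. Of 6 other MAP kinase phosphatase genes, DUSP2 was listed at 0 in both libraries, and the remaining 5 had a median log2 ratio of -0.047. DUSP7, which like DUSP6 is cytoplasmic and selective for ERK, had an FPKM of 33.22 with DMSO and 36.91 with FIN56, a ratio of 1.11 with a count interval of 1.08 to 1.15. DUSP7 was thus more abundant than DUSP6 in the DMSO library and less abundant in the FIN56 library. DUSP9, of the same cytoplasmic group, had the lower level with FIN56, at 1.43 and 0.85, and a ratio of 0.594 with a count interval of 0.499 to 0.780. DUSP10 and DUSP16, which act mainly on p38 and JNK, had ratios of 0.964 and 0.968. Their count intervals were 0.876 to 1.09 and 0.856 to 0.971. DUSP8 had 55 and 51 expected counts with an interval that held 1.

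Of 4 other genes of the Sprouty, SPRED and PEA3 families, 3 had FPKM ratios of 1.5 or more, against 14.7% of the 24454 genes. The wider background is given since SPRY3 lay below 1 in both libraries and SPRED3, at 0.90 and 1.44, with DMSO. For ETV1 and ETV5, above 1 in both, the nearer background is 3.87%. By counts 1 of the 4 genes reached 1.5, and the median log2 ratio was 0.66 by FPKM and 0.36 by counts. ETV5, the closest relative of ETV4, had an FPKM of 6.11 and 9.87, a ratio of 1.62, and its count ratio of 1.95 had an interval of 1.81 to 2.10 that lay above the interval of ETV4. ETV1 had a ratio of 1.55 by FPKM and 1.27 by counts (interval 1.14 to 1.42). SPRED3 had a ratio of 1.60 by FPKM and 1.29 by counts (interval 1.07 to 1.56). SPRY3 had an FPKM of 0.65 and 0.52, with a count interval of 0.745 to 1.13.

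Genes of the RAS to ERK cascade lay closer to a ratio of 1. None of 19 cascade genes reached 1.5 or 1/1.5, against 3.87% and 6.77% of the 12638 genes, and their median log2 ratio was 0.037. Ratios ran from 0.800 for MAPK3, which encodes ERK1, to 1.27 for SOS1, an exchange factor that loads RAS with GTP and whose count interval of 0.938 to 1.02 held 1. Of 11 other brakes on receptor, RAS or ERK signalling, 10 had ratios above 1, against 53.5% of the 12638 genes. Only SOCS3, an inhibitor of cytokine receptor signalling, reached 1.5, with an FPKM of 13.33 and 21.82 and a ratio of 1.64. A ratio of 1.5 was reached by 3.87% of the 12638 genes and 14.7% of the 24454. Not all of these brakes had an FPKM of 1 or higher. The lowest of these brakes was RASA1, a RAS GTPase activating protein, at 0.739.

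Among 11 other transcripts commonly read as ERK output, the median log2 ratio was 0.61 by FPKM and 0.33 by counts. By FPKM 6 reached 1.5, against 14.7% of the 24454 genes, and by counts 5 did, while 1 lay at 1/1.5 or less by FPKM, against 17.3%. PLAUR, the urokinase receptor, had an FPKM of 14.58 and 36.01, a ratio of 2.47. PHLDA1 had a ratio of 1.79, CCND1 (cyclin D1) 1.70 and the ephrin receptor EPHA2 1.53. LIF reached 1.53 by FPKM with a count interval of 0.990 to 1.44 that held 1, and EPHA4 reached 3.86 on 26.37 and 43.11 expected counts, which is below the minimum set for naming a gene, so it is named for completeness of the count. Ratios lay below 1 for 2 of the 11, each with a count interval below 1. The lower was that of EGR1, an immediate early transcription factor, with an FPKM of 10.93 with DMSO and 4.96 with FIN56. Its ratio was 0.454 (count interval 0.422 to 0.488).

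**Figure D4:**
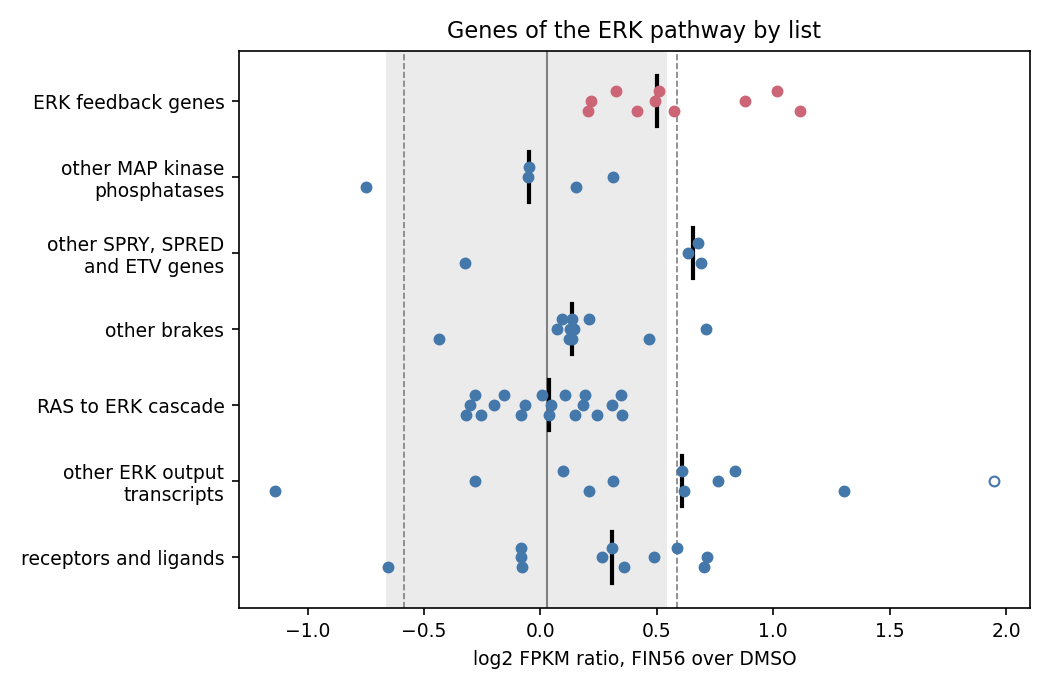
Log2 FPKM ratios of FIN56 over DMSO for each gene of 7 lists, with black bars for list medians, an open circle for the gene with under 100 expected counts over the pair of libraries, shading for the 5th to 95th percentile of the 12638 genes and dashed lines at 1.5 and 1/1.5. The feedback genes all lie right of 0 with a median of 0.50, the cascade genes centre on 0.037, and EGR1 is the leftmost point at -1.14.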

How the data were processed

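RNA of 1 DMSO and 1 FIN56 culture was prepared with a stranded mRNA kit. The following steps are stated for the tumor samples of the study and, by the labels' tool list, are taken to hold here. The authors trimmed reads, aligned them with STAR 2.6.1a to GRCh38 and estimated values per gene with RSEM 1.3.1. Whether counting used strand is not given in the sources used here. The deposited expected counts are not normalized. FPKM as deposited is per effective gene length and sequencing depth, with 2 decimals. TPM as deposited has the same total in each library. The authors also made rlog values, on a log2 scale, with DESeq2 1.26.0.

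The 10 genes and all lists were chosen with earlier results of these data known. A further cell type marker is not reported here. Named were the 10 genes, their listed paralogs and, of the other lists, genes past 1.5 or 1/1.5 by FPKM ratio and the highest and lowest ratios, given a sum of at least 100 expected counts over the pair of libraries. EPHA4, HBEGF and the receptors EGFR, ERBB2, ERBB3, MET, FGFR1 and FGFR2 fall outside this rule and were named after their values were seen. Totals were 70184517 and 73062209 expected counts, rounded to whole numbers for exact intervals at a level of 95%. No molecular identifiers are described, so reads may not be independent molecules. The exact intervals treat each read as independent, cover counting error only and are too narrow where reads are duplicates. The steps were tested on simulated Poisson counts, the model that the intervals assume. That test cannot show how the intervals hold with duplicate reads or spread between cultures. Alternatives used edgeR 4.0.16 (TMM) and DESeq2 1.42.0 (size factors), for scaling alone. Python 3.11.15, scipy 1.17.1 and R 4.3.3 were used. Gene positions came from GENCODE release 44 on GRCh38, the build the authors name, and promoter windows from RefSeq.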

Additional observations from a re-analysis of the deposited data

How the results depend on the processing

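No paired analysis was possible because there is only 1 library for each treatment, and no replicate could be left out. Under 9 alternative measures, scalings, pseudocounts and filters, each of the 10 feedback genes stayed above 1. The pseudocounts and the filter could not have reversed a direction. TPM and centring on the median log2 ratio multiply every FPKM ratio by the same factor. Of 90 single gene ratios, 75 stayed within the interval of the main value. That interval was the FPKM ratio with the relative width of the counting interval of its count ratio. The filter on FPKM level removed none of the 10 genes, so it returned their main ratios unchanged. Its 10 values are counted among the 75 but could not have differed. The deposited rlog values, which by construction draw libraries towards each other, left 0 of the 10 genes at 1.5 or more in place of 3, with a highest ratio of 1.35 for DUSP6, and lowered the median log2 ratio from 0.50 to 0.17. TPM and DESeq2 size factors raised the count to 4 by adding DUSP5 (1.52 and 1.53), and a threshold of 2 left 2. Counts at 1/1.5 or less were 0 throughout. Adding the few counts of the opposite-strand gene to DUSP6, chosen after seeing the data, gave 2.01 and could hardly have differed. Depth limits SPRY1 most.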

Other observations

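The 11 receptors and ligands upstream of the pathway had a median log2 ratio of 0.31 by FPKM and 0.22 by counts. Of the EGF receptor ligands, EREG (epiregulin) had an FPKM of 11.91 with DMSO and 19.56 with FIN56, a ratio of 1.64, AREG (amphiregulin) had 287.06 and 467.86, a ratio of 1.63, TGFA had 42.62 and 63.94, a ratio at the threshold of 1.5, and HBEGF had a ratio of 1.40. The receptor EGFR had an FPKM of 188.23 and 178.37, a ratio of 0.948, and ERBB2 and FGFR1 had ratios of 0.943 and 0.945. By counts the ratio of FGFR1 lay on the other side of 1, at 1.17, with an interval that held 1 (0.985 to 1.39). Other receptors had the higher level with FIN56, with a ratio of 1.28 for MET (count interval 1.27 to 1.32) and an FPKM of 22.11 and 26.57 for FGFR2 (count ratio 1.11, interval 1.07 to 1.16). FGFR3 had the lowest ratio of the 11 genes, 0.635 with a count interval of 0.535 to 0.678. ERBB3 had a ratio of 1.24 by FPKM and of 0.678 by counts, so its direction depended on the measure. These values come from 1 library per condition, and no difference between receptors and ligands was tested. The genes were chosen with earlier results of these data known.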
